A study of Drosophila melanogaster with 4 samples.

Results

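A set of 414 autosomal chromatin regions was more open in nuclei of the somatic gonadal precursors (SGPs) than in germ nuclei of the Drosophila melanogaster embryo. They were found in 1 multiome library, in which open chromatin (ATAC) and nuclear RNA were read from the same nuclei of vas-GFP embryos aged 0 to 20 h. The vas-GFP transgene marks germ cells, and the cells were sorted on it: single germ cells from younger embryos, and whole gonads, which bring their SGPs along, from the oldest embryos only. A nucleus needed at least 1000 ATAC counts. It was called SGP with at least 2 unique transcripts (UMIs) of tj, eya, Six4 and Wnt2 together and no fewer than its germline UMIs. It was called germ with at least 5 UMIs of nos, vas, pgc, zpg, aub, AGO3, gcl, ovo and tej together and at least 3 times its SGP UMIs. A peak on arm 2L, 2R, 3L or 3R became a member when it had at least 30 counts in both pools together and its counts scaled to a pool total of 1000000 (CPM), plus 5, were at least 2-fold higher in the SGP pool. Of 19437 peaks, 16245 were autosomal and 16236 could qualify, so the 414 members were 2.55% of those tested. Another 1113 peaks were at least 2-fold higher in the germ pool and are called germ-open here. The remaining libraries were a scRNA-seq library of 8-20 h gonads and germ cells and one of 0-8 h germ cells, also vas-GFP. Each library was 1 sample with no replicate, so no test across samples was possible. All intervals given are 95% and cover counting error only.

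SGPs are mesodermal cells that wrap the germ cells when the gonad forms and give rise to its support cells. Their fate rests on transcription factors such as Eya and Six4, on the Hox genes abd-A and Abd-B that place them along the body, and on Doublesex (dsx), which makes them female or male. Open chromatin marks promoters and enhancers, the stretches of DNA to which such factors bind, and a peak that is open in one cell type only is often an enhancer of that type.

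The 4 sequences shown are the centres of the members with the largest SGP to germ ratio among those that had at least 100 SGP counts and could be printed, and they show which short factor motifs these regions hold. They are 300 bases of the RefSeq Release 6 assembly, plus strand, 5′ to 3′, with matches to the 18 motifs searched in capitals.
Six4 peak, 3L:20789230-20789529: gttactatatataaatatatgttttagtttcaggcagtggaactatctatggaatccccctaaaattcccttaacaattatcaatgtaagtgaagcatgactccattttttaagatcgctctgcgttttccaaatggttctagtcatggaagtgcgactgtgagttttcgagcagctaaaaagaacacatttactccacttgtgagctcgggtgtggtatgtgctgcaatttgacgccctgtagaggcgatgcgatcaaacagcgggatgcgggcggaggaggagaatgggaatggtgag
dsx peak, 3R:7926573-7926872: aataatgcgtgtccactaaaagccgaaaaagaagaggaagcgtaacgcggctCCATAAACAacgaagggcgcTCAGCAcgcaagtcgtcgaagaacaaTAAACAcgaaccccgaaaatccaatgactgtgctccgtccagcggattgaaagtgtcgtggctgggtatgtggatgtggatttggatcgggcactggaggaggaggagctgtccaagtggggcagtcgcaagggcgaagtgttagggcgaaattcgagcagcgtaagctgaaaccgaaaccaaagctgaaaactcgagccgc
iab8 peak, 3R:16904609-16904908: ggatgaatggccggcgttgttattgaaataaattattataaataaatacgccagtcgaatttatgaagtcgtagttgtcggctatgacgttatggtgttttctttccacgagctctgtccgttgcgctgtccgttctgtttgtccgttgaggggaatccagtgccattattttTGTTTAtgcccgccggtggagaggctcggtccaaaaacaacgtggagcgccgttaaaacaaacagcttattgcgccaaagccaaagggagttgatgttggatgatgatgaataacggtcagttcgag
CG42673 peak, 3L:9554225-9554524: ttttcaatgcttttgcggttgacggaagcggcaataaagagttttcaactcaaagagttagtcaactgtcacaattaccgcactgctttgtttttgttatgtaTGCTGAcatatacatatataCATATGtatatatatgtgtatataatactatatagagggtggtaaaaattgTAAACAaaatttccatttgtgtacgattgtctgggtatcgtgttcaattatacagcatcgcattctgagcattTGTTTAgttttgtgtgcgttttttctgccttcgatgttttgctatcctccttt
The Six4 window held none of the 18 motifs. The dsx window held 2 matches to TAAACA, the core bound by forkhead proteins, 1 to TTTATGG, the Abd-B type of Hox site, and 1 to TGCTGA, a Maf-type site. In the dsx window the TTTATGG match, read on the minus strand, overlapped 1 of the TAAACA matches. The iab8 window held 1 TAAACA, and the CG42673 window held 2 TAAACA, 1 TGCTGA and 1 CATATG.

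The SGP pool was small beside the germ pool. It held 97 nuclei with 733242 ATAC counts (median 3990 per nucleus, from 1001 to 47175), and the germ pool held 721 nuclei with 5697855 counts (median 4753). The deepest SGP nucleus gave 6.43% of its pool. The RNA of the 2 pools matched their names beyond the genes of the rule: zfh1, abd-A, Abd-B, Sox100B, esg and Fas3 summed to 1646 CPM in SGP nuclei and 478 CPM in germ nuclei. Markers of other cell types were also present. The glia list summed to 234 CPM in SGP and 77.0 CPM in germ nuclei, although the defining glial genes repo and Gs2 were at 0 in the SGP pool. The muscle list gave 159.8 CPM in SGP and 99.5 CPM in germ nuclei, with Tm2 alone at 79.9 CPM in SGP and 14.0 CPM in germ nuclei. Of its other genes, Mhc, Mlc2 and bt were lower in SGP nuclei, and Act57B, up and sls slightly higher. The hemocyte list gave 25.6 CPM in SGP and 71.4 CPM in germ nuclei. The part of these cells in the results was not tested. The ATAC and RNA tables share all 3022 barcodes by design, and no barcode was shared with or between the scRNA-seq libraries.

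The members were moderately, not exclusively, open in SGP nuclei. With 5 CPM added, the SGP to germ fold ran from 2.00 to 3.69 with a median of 2.21, and 0 members reached 4-fold. The median member had 95.5 CPM in the SGP pool and 39.0 CPM in the germ pool, and was hit in 37.1% of SGP nuclei and 18.0% of germ nuclei. The ratio without added CPM had an interval wholly above 2 for 86 members. Just inside the line stood peaks by Spn43Aa, lncRNA:CR45920 and CG6357, all at a log2 of 1.00. The peak of CG6357 had 24 SGP and 79 germ counts. Just outside stood peaks by lncRNA:CR44552, Eip74EF and Pde11, also at a log2 of 1.00. The peak of lncRNA:CR44552 had 173 SGP and 658 germ counts. Since the rule used these counts, they describe the members and test nothing.

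**Figure D1:**
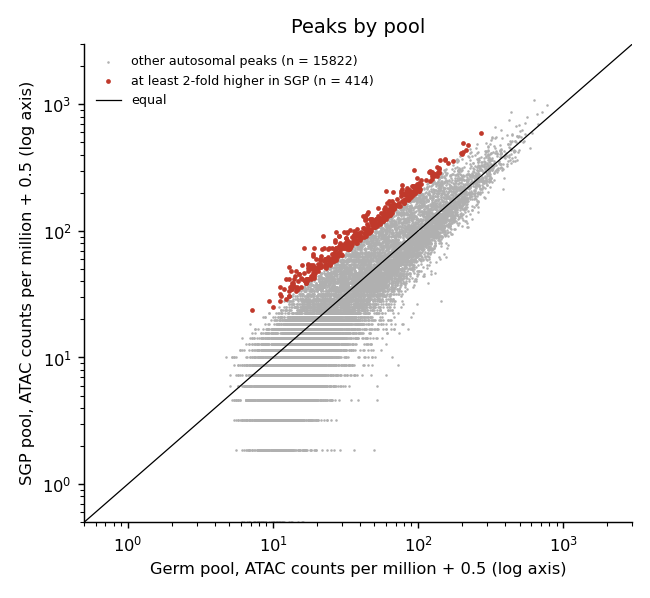
Each point is an autosomal peak, with its CPM plus 0.5 in the SGP pool on the y axis and in the germ pool on the x axis, both log scaled; red points are the 414 members and the line marks equal values. The members form the upper edge of 1 continuous cloud, and none is empty in the germ pool.

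Germ nuclei differed among themselves in how much of their signal fell in the members. The members took 5.01% of SGP counts (nucleus median 5.31%, from 2.13% to 8.20%) and 2.11% of germ counts (nucleus median 1.24%, from 0.355% to 5.96%). In the 216 germ nuclei with at least 1 UMI of the SGP genes the share was 2.73%, and in the 505 germ nuclei with none it was 1.44%. The share also differed by depth, though not steadily. Germ nuclei with 1000 to 2000, 2000 to 5000, 5000 to 10000 and 10000 counts or more had 1.52%, 1.31%, 1.60% and 2.57% of their counts in the members. In germ nuclei with no SGP UMIs the shares at these depths were 1.40%, 1.17%, 1.49% and 1.66%, and SGP nuclei ran from 4.94% to 5.33%. Against the 505 germ nuclei without SGP UMIs, a setting chosen after seeing the data, 1281 peaks passed the line, 411 of the 414 members among them. The number of peaks past the line thus depended on which germ nuclei were pooled. Whether those germ nuclei carried SGP chromatin was not tested. As the SGPs came from the oldest embryos and the germ nuclei from all ages, embryo age and cell type cannot be told apart in this contrast.

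Shallow nuclei, which the rule left out, gave the same measure in counts it had not used. Under 1000 ATAC counts, 30 nuclei passed the SGP rule and 163 the germ rule. The members held 484 of 11739 counts in these SGP nuclei, 4.12% (3.77 to 4.50), against 986 of 53937 in these germ nuclei, 1.83% (1.72 to 1.94). The ratio was 2.26 (2.02 to 2.52), beside 2.37 in the pools of the rule. For the germ-open peaks it was 0.608 (0.530 to 0.696), and for all peaks that could qualify 1.02 (0.999 to 1.04). Single peaks could not be read at this depth: 178 members had 0 counts in the shallow SGP nuclei, and the median log2 ratio per member was 0.19, beside -0.37 over all peaks.

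The largest ratio among members with at least 100 SGP counts belonged to a peak inside Six4, a gene of the rule. It lay at 3L:20789041-20789719 in BDGP6 coordinates, with its centre in an intron of Six4 where an exon of asRNA:CR46484 is annotated, and its nearest start was that of CG11396, 1243 bp away. It had 150 SGP and 339 germ counts, which is 205 CPM in the SGP pool and 59.5 CPM in the germ pool, a ratio interval of 2.82 to 4.18. The peak was hit in 58.8% of SGP nuclei and 27.6% of germ nuclei.

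The peak in second place lay in an intron of dsx, the factor that sets somatic sex, at 3R:7926339-7927107. It had 221 SGP and 533 germ counts, 301 CPM in SGP nuclei and 93.5 CPM in germ nuclei (ratio 2.74 to 3.78). Although the nearest start is that of lds, a helicase gene, the nuclear RNA of lds gave 29.4 CPM in SGP and 17.1 CPM in germ nuclei, whereas dsx gave 237 CPM in SGP and 74.2 CPM in germ nuclei. In the 8-20 h cells dsx stood further apart, with 262 CPM in SGP cells and 8.10 CPM in germ cells. A further member lay 571 bp before a start of dsx, with 72.3 CPM in SGP nuclei and 31.6 CPM in germ nuclei.

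The other peaks among the 12 largest ratios lay at genes of several kinds. A peak within lncRNA:iab8, the long non-coding RNA that crosses the bithorax Hox complex, had 140.5 CPM in SGP and 44.9 CPM in germ nuclei. Peaks at the starts of blow and rost, both needed for myoblast fusion, had 151 and 165 CPM in SGP nuclei, against 52.5 and 60.5 CPM in germ nuclei. The RNA of rost was 155 CPM in SGP cells of the 8-20 h library and 3.58 CPM in germ cells, and that of blow was 51.6 CPM in SGP cells and 2.87 CPM in germ cells. The peak in an intron of CG42673, at 136 and 43.9 CPM in SGP and germ nuclei, went with RNA of 217 CPM in SGP cells and 7.53 CPM in germ cells. The remaining peaks of the 12 lay at nord, CG6225, beat-IIa (an immunoglobulin-domain surface protein), CG32354, CG14182 and, inside comm3, lncRNA:CR45977. Their SGP levels ran from 172 to 263 CPM and their germ levels from 62.5 to 97.8 CPM. CG14182 went the other way in RNA. CG11396, nearest to the Six4 peak, did so too, at 15.6 CPM in SGP cells and 27.3 CPM in germ cells. RNA of lncRNA:iab8 was 1.51 CPM in SGP nuclei, from 2 UMIs, and 4.38 CPM in germ nuclei. CG32354 was nearly level in cells, at 10.4 CPM in SGP cells and 7.26 CPM in germ cells. Its nuclear RNA was 43.7 CPM in SGP nuclei, from 58 UMIs, and 5.40 CPM in germ nuclei, from 85. nord, CG6225 and beat-IIa were higher in SGP cells, at 14.3, 14.0 and 10.5 CPM, against 0.570, 0.517 and 0.285 CPM in germ cells. In the shallow nuclei the 12 peaks together had 24 counts in SGP and 28 in germ nuclei, a ratio of 3.94 (2.19 to 7.05), and 5 of them had 0 SGP counts there.

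By counts, the strongest member lay at the start of lncRNA:CR46036 within osa, which encodes a subunit of the Brahma remodelling complex. It had 435 counts or 593 CPM in the SGP pool, and 1551 counts or 272 CPM in the germ pool. Next came the shared start region of E(spl)m3-HLH and lncRNA:CR43644, with 491 CPM in SGP and 205 CPM in germ nuclei. E(spl)m3-HLH is a basic helix-loop-helix repressor induced by Notch. The peaks of asRNA:CR45281, bin3, Mes2 and chn followed, at 415 to 477 CPM in SGP nuclei and 196 to 219 CPM in germ nuclei. These 6 peaks were hit in 76.3% to 88.7% of SGP nuclei and in 42.3% to 49.8% of germ nuclei, so the most abundant members were open widely in both.

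Of the 20 genes in a list of gonadal soma genes, 18 had a tested peak and 5 had a member, beside 4.52% of all genes with a tested peak. The members were 7 of their 124 tested peaks, 5.65%, beside 2.55% of all tested peaks. zfh1, a zinc-finger homeodomain factor of the mesoderm, had 1 member 2827 bp before a start, with 95.5 CPM in SGP and 31.9 CPM in germ nuclei. The Hox gene abd-A, needed for the SGP fate, had 3 members. The one in its intron was at 123 CPM in SGP and 46.0 CPM in germ nuclei, and the 2 upstream were at 49.1 and 77.7 CPM in SGP nuclei, against 18.8 and 34.7 CPM in germ nuclei. Sox100B, the fly Sox9 relative of male-specific SGPs, had 1 at its start with 73.6 CPM in SGP and 28.6 CPM in germ nuclei. ptc, the Hedgehog receptor, had 1 with 199 CPM in SGP and 94.6 CPM in germ nuclei. zfh1, abd-A and hth also carried germ-open peaks, so single peaks of a gene differed in direction.

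The nuclear RNA of these genes was higher in SGP nuclei where it could be read. zfh1 gave 290.3 CPM in SGP and 86.4 CPM in germ nuclei, abd-A 128 CPM in SGP and 33.8 CPM in germ nuclei, and ptc 131 CPM in SGP and 51.2 CPM in germ nuclei. Sox100B had 2 UMIs in either pool, too few to compare. In the 8-20 h cells zfh1 reached 671 CPM in SGP and 56.4 CPM in germ cells, and ptc 352 CPM in SGP and 10.4 CPM in germ cells. eya, which encodes the Six4 partner and was a gene of the rule, had 3 members, with 72.3, 60.01 and 124 CPM in SGP nuclei and 18.6, 22.5 and 53.4 CPM in germ nuclei. The first of these lay inside the neighbouring gene CG31637.

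In the mesoderm list 3 of 11 genes with a tested peak had 1 member each, beside 4.52% of all genes with a tested peak. These members were 6.67% of the list's 45 tested peaks, beside 2.55% of all tested peaks. The 3 genes were bap and bin, factors of the visceral mesoderm, and how, an RNA-binding protein of muscle. The bap peak had 87.3 CPM in SGP and 31.6 CPM in germ nuclei, but bap RNA was nearly absent, with 1 nuclear UMI in either pool. RNA of bin was 117 CPM in SGP cells of the 8-20 h library and 3.24 CPM in germ cells, whereas RNA of how was lower in SGP cells, at 156 CPM, against 338 CPM in germ cells. In the signaling list 5 of 20 genes had 6 members, 5.08% of 118 tested peaks: fz2 (a Wnt receptor, 2 members), Egfr, pnt (the ETS effector of that receptor), ths (an FGF ligand) and Dad (the inhibitory Smad of the BMP pathway). The Dad peak had the largest log2 difference of these with 5 CPM added, at 84.6 CPM in SGP and 26.2 CPM in germ nuclei. Germ-open peaks, the larger set with 1113 peaks, lay at 7 of the 20 signaling genes: fz2, vn, pnt, htl, ths, Ser and dpp. Over all 8046 genes with a tested peak, 934 had a germ-open peak. In the list of steroid and sex genes the nuclear receptors Eip75B and ftz-f1 had 2 members each, 4.65% of the 86 tested peaks of that list. Germ-open peaks lay at 3 genes of that list: EcR, fru and Eip75B itself. Eip75B RNA was 851 CPM in SGP cells and 32.5 CPM in germ cells. The 7 basement membrane genes and the 10 germline genes with a tested peak had no member among 10 and 18 tested peaks, too few to read against the 2.55% of all peaks. The mesoderm, signaling and steroid lists held 3, 6 and 4 members, which are also small counts, and no interval was computed for them.

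The members belonged to 364 nearest genes, of which 322 had 1 member, 34 had 2 and 8 had 3. The 8 were CG9932, Dyrk2, Eip74EF, abd-A, eya, lncRNA:CR44197, lncRNA:CR44603 and lncRNA:iab8. CG9932 had 3 of its 5 tested peaks as members, within 12080 bp, whereas the ecdysone-induced ETS gene Eip74EF had 3 of 20. Going along an arm, the next tested peak was also a member for 32 of 413 members, 7.75%, beside 2.55% of all tested peaks that were members. Arms 2L, 2R, 3L and 3R held 23.4%, 24.6%, 26.1% and 25.8% of the members, beside 23.1%, 22.3%, 26.6% and 27.9% of all tested peaks.

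The members were more often in introns than germ-open peaks or all peaks. They were less often at starts than all peaks, but not than germ-open peaks. Counting a peak as at a start when it came within 250 bp of one, 26.1% of members (21.9 to 30.6) were at an annotated start, beside 37.4% of all peaks that could qualify and 22.6% of germ-open peaks. Introns held 48.8% of members, 32.0% of germ-open peaks and 27.3% of all peaks. Exons outside starts held 3.14% of members, 13 peaks, beside 20.0% of germ-open and 16.9% of all peaks. The median member lay 2664.5 bp from the nearest start and was 553.5 bp wide, beside 1520.5 bp and 530 bp over all peaks. Its central 300 bases were 45.2% G or C, beside 49.3% in germ-open and 48.3% in all peaks.

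**Figure D2:**
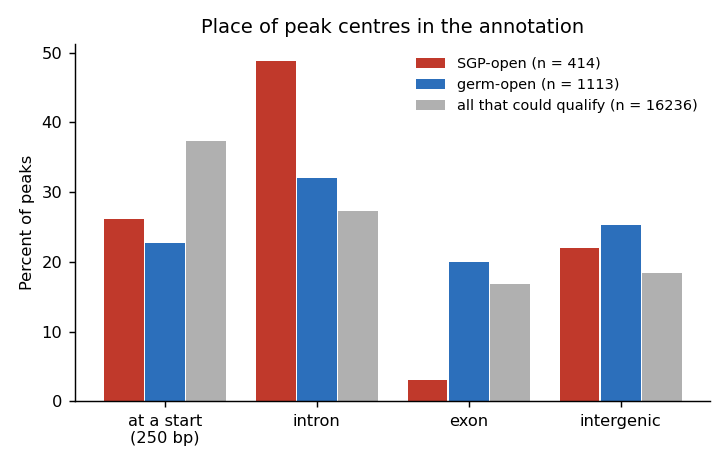
Bars give the percent of peaks whose place in the Ensembl annotation is at a start (within 250 bp), in an intron, in an exon or between genes, for SGP-open, germ-open and all peaks. Members are at 48.8% in introns and 3.14% in exons, beside 27.3% and 16.9% of all peaks.

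Several of 18 short motifs were scarcer in the members than in other peaks. Both strands of the central 300 bases were searched for them. Those of promoters were TATCGATA for the factor DREF, GGTCACAC for the factor M1BP and GAGAGAG for the GAGA factor. Zelda was given by CAGGTAG. E-boxes, the sites of helix-loop-helix and Snail-type factors, were read as CAGGTG, with CATATG as another form and CAGCTG as a further one. Mesoderm and gonad factors were given by AGATAAG for the GATA family, TCAAGTG for the homeodomain protein Tinman, TAAACA for forkhead proteins and TGATAC for Six4-type proteins. Hox and sex factors were given by TTTATGG for the protein Abd-B, TAATTA for homeodomains at large and ACAATGT for the protein Dsx. Signal effectors were given by TTCNNNGAA for the JAK-STAT effector, GTGGGAA for the Notch effector Su(H), TGACTCA for the dimer AP-1 and TGCTGA for Maf proteins. CAGGTG, the E-box bound by Snail and Zfh1 type repressors, was in 10 members, 2.42% (1.16 to 4.40), beside 12.7% of all windows and 16.4% of germ-open windows. CAGGTAG, the site of the early zygotic activator Zelda, was in 0 of 414 members (0 to 0.887%), beside 2.28% of all and 5.21% of germ-open windows. CAGCTG, an E-box with the same share of G and C as CAGGTG, was in 14.0% of members (10.8 to 17.7) and 17.7% of all windows. It reads the same on both strands, unlike CAGGTG, so the 2 are not matched for chance matches. The promoter motifs GGTCACAC (M1BP) and TATCGATA (DREF) were in 0% and 0.242% of members, beside 1.74% and 1.71% of all windows. Over all windows both were more common at starts, where members were fewer. Away from starts they were in 0% (0 to 1.198) and 0.327% (0.00827 to 1.81) of members, beside 0.511% and 0.502% of all windows, and at starts in 0 of 108 members (0 to 3.36%), beside 3.79% and 3.72% of all windows. CAGGTG kept its gap in both places, with 2.29% of members away from starts and 2.78% at starts, beside 12.7% and 12.8% of all windows.

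Other motifs were more common in the members. TTTATGG was in 12.1% of members, 6.19% of all windows and 5.75% of germ-open windows, and TAAACA in 29.5% of members, 21.6% of all windows and 17.9% of germ-open windows. GTGGGAA, the site of the Notch effector Su(H), was in 7.005% of members and 4.01% of all windows, and TCAAGTG, the Tinman site, in 9.42% of members and 6.02% of all windows. TAATTA, the site of homeodomains at large, was in 12.3% of members (9.31 to 15.9), an interval that holds the 10.9% of all windows. The same held for CATATG, at 11.1% (8.25 to 14.5) beside 9.11%, and for TTCNNNGAA, at 8.94% (6.37 to 12.1) beside 6.39%. AGATAAG was in 1.93% of members (0.838 to 3.77) and 2.46% of all windows. The Dsx site ACAATGT was scarcer, in 2.17% of members (0.999 to 4.09), 4.32% of all windows and 5.30% of germ-open windows. GAGAGAG was in 11.8% of members and 8.40% of all windows, and the Maf-type, Six4-type and AP-1 motifs were within 1 percentage point of all windows. The share with the E-box ran down along the scale of ratios from a log2 of -1 upward. CAGGTG was in 17.3% of windows at a log2 from -1 to -0.5, in 9.73% from 0 to 0.5, in 4.84% from 0.5 to 1 and in 1.94% above 1.2. Over the whole peak in place of its centre, a setting chosen after seeing the data, it was in 8.21% of members and 25.4% of all peaks. In whole peaks CAGGTAG was in 4 members, 0.966% (0.264 to 2.46), beside 4.85% of all peaks. A match is a string of letters and not a bound site.

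**Figure D3:**
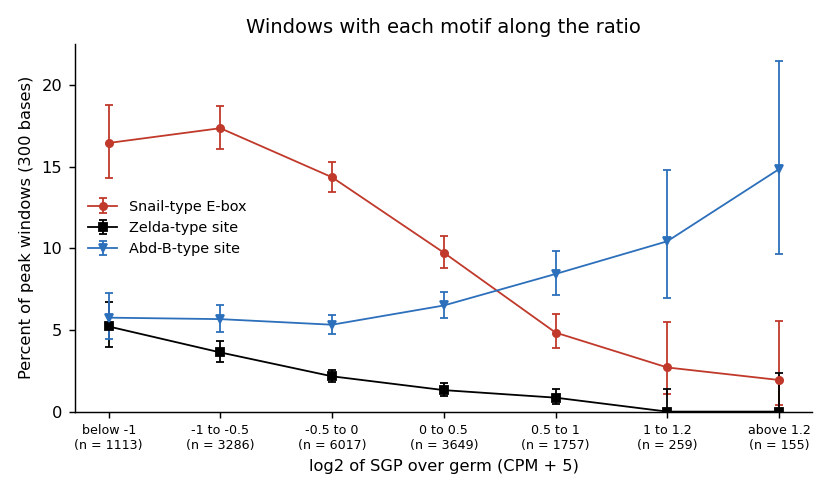
Percent of central 300-base windows holding the Snail-type E-box, the Zelda-type site and the Abd-B-type site (y axis), for autosomal peaks grouped by their log2 SGP to germ ratio (x axis, number of peaks under each group), with 95% exact intervals as bars. The E-box and the Zelda site fall and the Abd-B site rises towards the members, the 2 groups at the right.

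The genes nearest to the members had more RNA in SGPs. The rule used RNA of its own genes to define the pools, but no RNA to choose peaks. In nuclear RNA, 215 of the 364 genes had at least 20 UMIs in both pools together and were outside the rule, and 97 of them, 45.1% (38.3 to 52.0), were at least 2-fold higher in SGP nuclei. Over all genes of peaks that could qualify the share was 9.24%. Only 4 were at least 2-fold lower, beside 11.4% of all such genes. Their median log2 difference was 0.83, beside -0.16 over all. The genes of germ-open peaks were at least 2-fold higher in SGP nuclei in 12.6% of cases. Against the 505 germ nuclei without SGP UMIs the share was 60% of members' genes and 15.7% of all genes.

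The same was seen in the 8-20 h scRNA-seq library, which was prepared from other cells. There 2418 cells met the SGP rule and 4268 the germ rule, with median depths of 4614 and 21792 UMIs. Of 225 genes with enough UMIs, 135 were at least 2-fold higher in SGP cells, 60% (53.3 to 66.5), beside 17.0% of all genes, and 7 were at least 2-fold lower, beside 18.6%. The median log2 was 1.60, beside -0.12. Of 204 genes read in both, 91 were 2-fold higher in both, 44 in the cells only, 5 in the nuclei only and 1 was lower in both. This split was not counted over all genes, so it only describes the members' genes. The share higher in SGP cells was 62.3% (50.6 to 73.1) for members at starts and 59.5% (51.3 to 67.3) for those away from them. A gene with both kinds was counted in each. Over all tested peaks these shares were 18.5% at starts and 24.0% away from them. In nuclear RNA the members' shares were 47.2% at starts and 44.4% away from them, beside 9.60% and 16.1% over all tested peaks. The 0-8 h library held 22 SGP cells, and no comparison was made there.

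**Figure D4:**
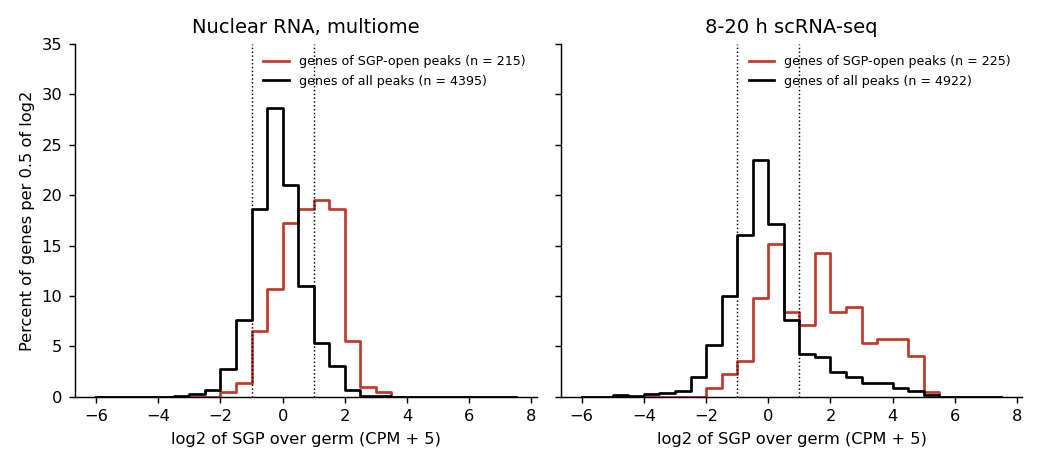
Histograms of the log2 of SGP over germ RNA (x axis, CPM plus 5) for genes nearest to SGP-open peaks (red) and to all peaks (black), in nuclear RNA and in the 8-20 h cells; the y axis is the percent of genes and dotted lines mark 2-fold. The red curve lies to the right, with medians of 0.83 and 1.60 beside -0.16 and -0.12.

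Ranked by the log2 difference between SGP and germ cells, the first 8 of the members' genes were of several kinds. The tonalli gene tna had 1361 CPM in SGP cells and 36.6 CPM in germ cells, and 937 and 301 CPM in SGP and germ nuclei. E(spl)mbeta-HLH, a Notch-induced repressor, had 3054 CPM in SGP cells and 93.7 CPM in germ cells, with a member at its start of 408 CPM in SGP and 199.9 CPM in germ nuclei. The POU factor pdm3 had 385 CPM in SGP cells and 10.9 CPM in germ cells. Surface proteins among them were CadN (N-cadherin), robo2 (a Slit receptor) and lbm (a tetraspanin), at 268, 487 and 482 CPM in SGP cells, against 6.32, 15.8 and 15.1 CPM in germ cells. Cipc and hdly completed the 8, at 382 and 550.5 CPM in SGP cells and 7.43 and 15.1 CPM in germ cells. In nuclei these 8 were 0.84 to 2.11 higher on the log2 scale, and in cells 4.56 to 5.04 higher. They were picked for their value in cells, so the 2 ranges do not compare cells with nuclei.

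Of the 6 lowest genes in SGP cells, COX4, CG7137 and CG7011 had their member far from their own start. CG14182 had 5.33 CPM in SGP cells and 32.4 CPM in germ cells, although its peak, 1681 bp from its start, was among the 12 largest ratios. The members assigned to COX4, CG7137 and CG7011 lay 10592, 19337 and 11898 bp away, and those of COX4 and CG7137 were inside sick and hppy. COX4, a respiratory chain subunit, had 612 CPM in SGP cells and 1329 CPM in germ cells. Strn-Mlck, a myosin light chain kinase gene, was an exception with its member at its start. Its RNA was 40.7 CPM in SGP cells and 141 CPM in germ cells, while the peak had 70.9 CPM in SGP and 26.7 CPM in germ nuclei. CG42709, whose member lay inside Atg1, had 8.31 CPM in SGP cells and 29.2 CPM in germ cells.

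Nuclei in neither pool, which the rule did not use, had an intermediate share of their counts in the members. Over 1011 such nuclei it was 3.05% (3.03 to 3.06), with a nucleus median of 2.63%. Those in no marker class but with at least 1 SGP UMI had 3.87%, and those with none 2.66%. Of the marker classes, 35 glia-like nuclei had 3.97%, 88 muscle-like 2.69%, 30 hemocyte-like 2.41%, 10 epidermis-like 2.26% and 29 neuron-like 2.00%. The glia-like nuclei were the deepest of these, with a median of 10535 counts. Their list includes nrv2, loco and moody, which were themselves higher in the SGP pool. These gave 130, 86.7 and 17.3 CPM in SGP nuclei, against 30.9, 38.4 and 6.03 CPM in germ nuclei. nrv2 and loco also had 1 member each. Whether the glia-like class holds SGP-like nuclei was not tested. Shallow SGP nuclei, also outside the rule, had 4.12%. Among the glia, hemocyte, muscle and neuron classes the glia-like was the highest for 269 members, 65.0%, beside 20.2% of all tested peaks. The dsx intron peak had 301 CPM in SGP, 233 in glia-like, 85.7 in muscle-like and 23.7 in hemocyte-like nuclei.

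**Figure D5:**
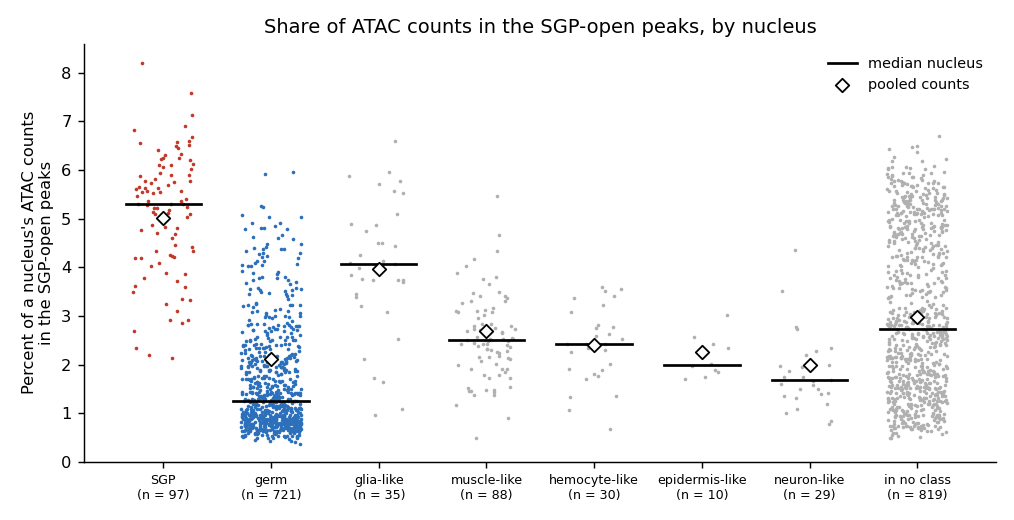
Each point is a nucleus with at least 1000 ATAC counts, and the y axis is the percent of its counts in the 414 members; bars are medians of nuclei and diamonds are pooled counts. SGP nuclei have a median of 5.31%, glia-like nuclei are next among the classes at 3.97% pooled, and germ nuclei spread from 0.355% to 5.96%.

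The share in the members was also read in kinds of SGP nuclei, which overlap and whose counts chose the members, so these values are a description. It was 5.10% in 19 nuclei with Abd-B and Six4 UMIs, a pair found in male-specific SGPs, and 5.23% in 16 nuclei with upd1, a JAK-STAT ligand of male SGPs. The lowest of the 19, at 2.68%, had 0 roX UMIs and is called female below, so the 19 were not all male by that call. The share was 5.02% in 40 nuclei with Abd-B and 4.99% in 57 without.

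SGP nuclei were sexed by the male-specific roX RNAs, with 0 UMIs called female and at least 2 called male. There were 25 female and 66 male nuclei, with a median of 19.9% and 13.4% of ATAC counts on the X and with 90586 and 612802 counts in all. The members took 4.75% of female and 5.01% of male counts. Of 374 members with at least 30 counts in both sexes together, 10 (2.67%) were at least 2-fold higher in female nuclei, beside 2.48% of all peaks tested, and 47 (12.6%) were at least 2-fold lower in female nuclei, beside 12.0%. Both shares were close to their background. The ratio interval lay above 1 for 14 members, 3.74% beside 2.92% of all peaks tested, and below 1 for 21, 5.61% beside 4.36%. The roX call and the X share disagreed in part, as 16 of the 66 nuclei called male had the higher X share of females. Split by X share instead, 7.34% of members and 5.33% of all peaks were 2-fold apart in either direction, against 15.2% and 14.4% by roX.

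Single members at the extremes rested on few female counts. The peak at the start of eya had 1 count in female and 40 in male SGP nuclei, 11.0 and 65.3 CPM, with a ratio interval of 0.00418 to 0.998. An intronic peak nearest to asRNA:CR44018 and a peak between genes nearest to CG33262 had 0 counts in female nuclei and 44 and 43 in male nuclei. In the other direction, a peak nearest to lncRNA:CR46095 had 11 female and 26 male counts, 121 and 42.4 CPM, with an interval of 1.28 to 5.99. These peaks were picked for their difference, which is given as a description.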

How the data were processed

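Per the labels and methods, vas-GFP cells were sorted and run as 10x libraries. The authors deposited whole-number counts: ATAC counts per peak and nucleus, nuclear RNA UMI counts per gene and nucleus, and UMI counts per gene and cell for each scRNA-seq library. Their processing notes name Cell Ranger 6.1.2, Cell Ranger ARC 1.0.0, Signac and BDGP6. For the nuclei the methods give DropletUtils against empty droplets, scDblFinder against doublets, and MACS2 peaks over the nuclei kept. No further doublet or free-RNA removal was applied. The members and lists were chosen with earlier results of these data known.

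Counts were summed per pool, scaled to CPM, and compared as log2 of CPM plus 5 (numpy 2.4.6, pandas 2.3.3 and scipy 1.17.1 under Python 3.11.15). Share intervals are exact Clopper-Pearson, and ratio intervals are the exact conditional ones. They cover counting error only, in 1 library each, and reads of one nucleus are not independent samples. A member's gene was that with the nearest annotated start (Ensembl, protein coding or ncRNA). RNA needed 20 UMIs in both pools together. Of 17807 genes of the nuclear RNA table, 16624 (93.4%) matched the annotation. A marker class needed 3 UMIs of its list and 2 times every other list. Named peaks and genes were the 12 largest ratios with at least 100 SGP counts, the 6 with most counts, those of listed genes, 3 on either side of the line, genes with most members (8 tied), the 8 highest and 6 lowest in cell RNA. The peaks 2-fold apart between sexes were picked after their values were seen. The ratio and interval code was tested on simulated data. A combined scRNA-seq table was not used, and 0 columns were left unmapped.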

Additional observations from a re-analysis of the deposited data

How the results depend on the processing

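Of 414 members, 288 remained with 10 CPM added, and all 414 were among 589 with 1 CPM added. The number moved by over 1.5 times in 3 settings: it was 8 at a 3-fold line, 1184 (395 of the 414 among them) with the mean of per-nucleus CPM, and 1281 (411 among them) against germ nuclei without SGP UMIs, a setting chosen after seeing the data. Dropping the deepest nucleus of each pool gave 451, of which 381 were members. The share of genes 2-fold higher in nuclear RNA was 33.3% with no minimum on UMIs, 55.8% with the mean of per-nucleus CPM and 60% against germ nuclei without SGP UMIs, beside 6.62%, 13.9% and 15.7% of all genes. In the 8-20 h cells it was 52.3% with no minimum and 66.7% with 1 CPM added, beside 13.9% and 21.9%. Members at a start were 35.99% within 1000 bp and 21.5% where the peak holds the start, beside 47.3% and 31.9% of all peaks. The share in nuclei outside both pools was 3.01% without a minimum on ATAC counts and 2.63% as the median nucleus. Members 2-fold apart between sexes were 7.34% by X share and 9.09% at 60 counts, beside 5.33% and 7.88% of all peaks. The cause was not tested. The median log2 ratio of the members in shallow nuclei was 0, 0.12 and 0.38 with the mean of per-nucleus CPM, 50 CPM added and peaks of 100 counts, beside 0.19 as reported and -0.86, -0.25 and -0.58 over all peaks. The motifs were searched over whole peaks as an added setting. The SGP pool, at 733242 counts over 97 nuclei of 1 library, limits single peaks. No paired analysis was possible because each library is 1 sample and no test was run.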
